A study of Mus musculus with 6 samples.

Results

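The genes described here encode the 5 NF-κB subunits, *Nfkb1*, *Nfkb2*, *Rela*, *Relb* and *Rel*, and 5 proteins that feed back on them, *Nfkbia*, *Nfkbie*, *Nfkbiz*, *Tnfaip3* and *Bcl3*. They were taken by gene symbol and are 10 of the 56884 genes in each table. All 10 passed the filter on low values and were among the 15426 genes tested. Their transcripts were measured by RNA sequencing in a mouse cell line made from the stromal vascular fraction (SVF) of subcutaneous white adipose tissue (scWAT), the fraction that contains adipocyte precursors.

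The cells overexpressed PPARγ2 with either of 2 substitutions, K382Q or K382R, with 3 biological replicates each. PPARγ2 is the adipocyte form of the nuclear receptor that drives adipogenesis. Glutamine at position 382 (K382Q) mimics an acetylated lysine, and arginine (K382R) mimics a lysine without the acetyl group. Both groups were collected on day 2 of beige adipocyte differentiation, after the same induction medium with isobutylmethylxanthine, indomethacin, dexamethasone, insulin, T3 and rosiglitazone. Dexamethasone is a glucocorticoid and rosiglitazone a ligand of PPARγ, and both are known to restrain NF-κB activity, so every library comes from cells under both agents. Each mutant was delivered by a retroviral vector with an HA tag and puromycin selection, on top of the cells' own *Pparg*. Cells with wild-type PPARγ2 or an empty vector were not analysed here, so the values compare the mutants with each other only.

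NF-κB proteins act as dimers that share a DNA-binding REL homology domain. RELA, RELB and REL carry a transactivation domain, while the products of *Nfkb1* (p105, processed to p50) and *Nfkb2* (p100, processed to p52) lack one. Inhibitors of the IκB family, such as IκBα (*Nfkbia*) and IκBε (*Nfkbie*), hold dimers in the cytoplasm until IκB kinase marks them for degradation. The freed dimers bind κB elements in DNA and induce several of their own subunits and inhibitors, so levels of these transcripts are commonly read beside NF-κB activity. TNFAIP3 (A20) edits ubiquitin chains upstream of IκB kinase, and the nuclear proteins IκBζ (*Nfkbiz*) and BCL3 bind p50 or p52 on DNA. In adipose tissue, NF-κB is best known for the chemokine and cytokine genes it induces in inflamed or TNF-treated fat cells.

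κB elements near the start sites of the members were read first, because several members are themselves known NF-κB targets. RefSeq windows (GRCm38.p6) of 250 bases before to 50 bases after a start site were held for 7 of the members, with 10 windows in all, and none were held for *Nfkb1*, *Relb* and *Nfkbiz*. Each window matched the GRCm39 genome at 1 position, and the coordinates below are those of GRCm39, the build of the tables. The 10-base κB consensus was searched on both strands. It occurred in 8 of the 10 windows, at *Nfkbia*, *Nfkbie*, *Nfkb2*, *Rel*, *Tnfaip3* and *Bcl3*, and in none at *Rela*. The later windows of *Nfkb2* overlap and share an element, so the windows are not separate counts. By gene, 6 of the 7 members with a window held the consensus, beside 5.14% of all genes with a window. Of all 32851 windows of the same length 4.51% held it, and of the 13056 windows of tested genes 5.08% did. The looser letters GGGNNNNNCC, which every consensus match also satisfies, occurred in 50.8% of all windows and 66.9% of those of tested genes. A match of letters does not show that a factor binds there.

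The sequences upstream of *Nfkbia* and *Nfkbie* are printed because these were the inhibitor genes with the clearest differences. Capitals mark the κB consensus. The stretch of *Nfkbia* is chr12:55539433-55539682 on the minus strand and ends at the base before the start, with the element at positions -29 to -20. The stretch of *Nfkbie* is chr17:45866376-45866575 on the plus strand, with the element at positions -106 to -97. GENCODE placed neither element in an exon of its gene.
Nfkbia: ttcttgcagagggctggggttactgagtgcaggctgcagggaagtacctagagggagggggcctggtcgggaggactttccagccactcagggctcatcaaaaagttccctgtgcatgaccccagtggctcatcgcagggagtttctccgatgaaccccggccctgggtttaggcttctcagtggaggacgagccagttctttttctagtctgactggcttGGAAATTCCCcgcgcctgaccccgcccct
Nfkbie: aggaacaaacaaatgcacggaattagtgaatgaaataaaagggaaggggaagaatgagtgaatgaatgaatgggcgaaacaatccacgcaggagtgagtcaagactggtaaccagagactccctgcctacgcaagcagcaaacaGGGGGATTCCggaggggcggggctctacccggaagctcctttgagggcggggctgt

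Elements of 4 further members are printed in windows of 30 bases, to set them beside genes that also have the consensus and whose transcripts differed less. *Nfkb2* had elements at positions -39 to -29 and -11 to -2 of its first RefSeq start (chr19:46293128-46293157 and chr19:46293155-46293184, plus strand). It had another at chr19:46294134-46294163 that lies after the second of its starts and before the last. The windows of *Rel* (chr11:23721041-23721070), *Tnfaip3* (chr10:18891151-18891180) and *Bcl3* (chr7:19556659-19556688) are on the minus strand. These 6 elements lie within an exon of the gene in GENCODE. *Nfkb2* and *Tnfaip3* each had a further element, at chr19:46293898-46293907 and chr10:18891274-18891283, that is not printed and lies, like those of *Nfkbia* and *Nfkbie*, in no exon of its gene.
Nfkb2 first: gatcgtcacGGGAATTCCCCccctcggggg
Nfkb2 second: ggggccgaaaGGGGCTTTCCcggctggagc
Nfkb2 last: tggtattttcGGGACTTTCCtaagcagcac
Rel: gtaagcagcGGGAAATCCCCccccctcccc
Tnfaip3: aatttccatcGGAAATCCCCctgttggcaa
Bcl3: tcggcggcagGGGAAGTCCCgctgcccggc

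Levels below are TPM, read density per length of transcript rescaled to a fixed total for each library, which allows levels of different genes to be compared. Tables came from 5.95 to 8.15 Gb of aligned reads per library and listed 22663 to 23837 genes above 0. Genes were compared by limma on log2(TPM + 0.5) with Benjamini-Hochberg adjustment, and a gene was called at an adjusted p under 0.05. Fold changes of low genes are understated on this scale. Since TPM shows shares of the transcripts, the whole distribution can shift: the median gene lay 0.14 lower (log2) in K382Q cells, and 36.9% of the tested genes were called lower (5698) against 11.1% called higher (1717). After median-ratio scaling, which sets the median gene near 0 (0.0039), 20.4% were lower (3148) and 19.9% higher (3064). Each member is therefore given on both scales. The labels call the replicates biological and do not say whether they are separate transductions or cultures, so p-values measure only the spread between these samples, and in bulk RNA fewer cells with a transcript cannot be told apart from less transcript per cell.

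All 10 members were transcribed at day 2, and none of them was higher in PPARγ2 K382Q-overexpressing cells. Of the members, 7 were lower, 0 were higher and 3 were not called, with a median log2 fold change of -0.19. The 7 lower members are to be read against the 36.9% of all tested genes that were also called lower. In every K382Q library 8 members lay below every K382R library, as did 42.8% of all tested genes. None passed a 2-fold change, as 3.88% of tested genes did. After median-ratio scaling, 3 members were lower, *Nfkb1*, *Nfkbia* and *Nfkbie*, 0 were higher, and the median of the members was -0.04, beside 20.4% of all tested genes called lower on that scale. Only these 3 members were called under all 18 alternative settings tried. Each of those settings called 6195 to 7843 genes, and the share of all tested genes called under every setting was not computed.

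**Figure D1:**
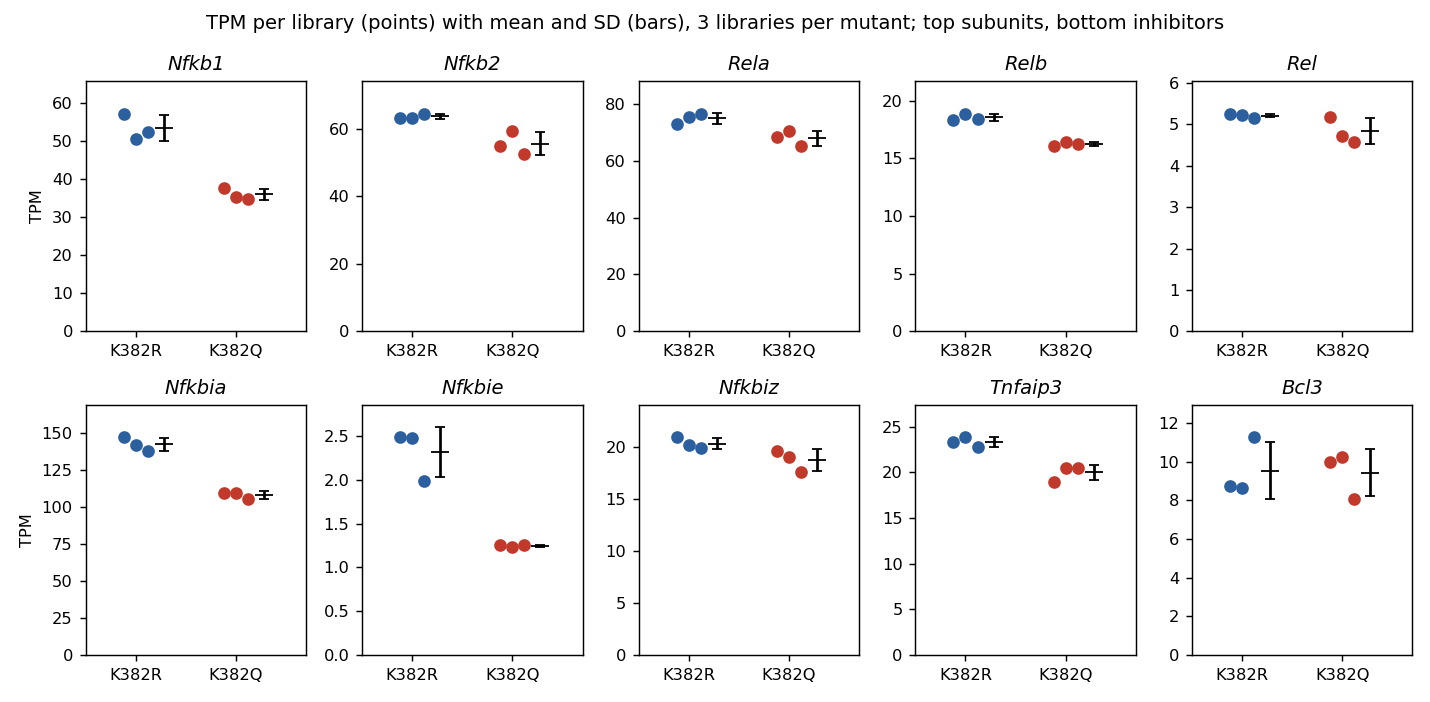
TPM (vertical axes, from 0) of the 10 members in each library, K382R libraries in blue and K382Q libraries in red, with the mean and SD of 3 libraries beside the points. *Nfkb1*, *Nfkbia* and *Nfkbie* show the widest gaps relative to their level, and the points of *Rel* and *Bcl3* overlap between the mutants.

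*Nfkb1* was the subunit that differed most. It encodes p105, which is itself an IκB-like inhibitor and the source of p50. Its TPM was 37.8, 35.4 and 34.9 in K382Q libraries and 57.3, 50.8 and 52.4 in K382R libraries. The groups did not overlap, and the K382Q mean was 0.673 times the K382R mean (36.0 ± 1.55 and 53.5 ± 3.40, SD, n = 3). *Nfkb1* (ENSMUSG00000028163.18, chr3:135290416-135397308, minus strand) fell by 0.56 ± 0.0561 (SE) on the log2 scale, and 9.85% of tested genes had a lower fold change (adjusted p = 0.000128, limma). Relative to the median gene it fell by 0.41 (adjusted p = 0.000722, limma with median-ratio scaling), and over all 18 alternatives it lay between -0.60 and -0.36.

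*Rela*, the main activating subunit, was the most abundant of the 5. Its TPM was 68.3, 70.3 and 65.2 in K382Q libraries and 72.9, 75.3 and 76.6 in K382R libraries. All K382Q values were lower, by a smaller step than for *Nfkb1*. *Rela* (ENSMUSG00000024927.9, chr19:5687511-5698158, plus strand) fell by 0.14 ± 0.0399 (adjusted p = 0.0211, limma), which is the shift of the median gene. With median-ratio scaling the difference was 0.01 with a 95% interval of -0.08 to 0.10 (adjusted p = 0.856, limma). The call of *Rela* on the TPM scale was also lost without K382Q replicate 3, without K382R replicate 2 and without K382R replicate 3 (adjusted p = 0.0684, 0.0618 and 0.0724, limma).

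*Nfkb2* and *Relb* form the dimer of the non-canonical pathway, p52 with RELB, and moved by similar amounts. TPM of *Nfkb2* was 54.9, 59.4 and 52.6 in K382Q libraries and 63.3, 63.3 and 64.6 in K382R libraries. TPM of *Relb* was 16.1, 16.4 and 16.3 against 18.3, 18.9 and 18.4. Neither gene overlapped between the mutants. *Nfkb2* (ENSMUSG00000025225.16, chr19:46292759-46300824, plus strand) fell by 0.20 ± 0.0479 (adjusted p = 0.0111, limma) and *Relb* (ENSMUSG00000002983.18, chr7:19340142-19363363, minus strand) by 0.19 ± 0.0471 (adjusted p = 0.0132, limma). With median-ratio scaling the differences were -0.05 for *Nfkb2* (95% interval -0.16 to 0.07, adjusted p = 0.515, limma) and -0.04 for *Relb* (-0.15 to 0.07, adjusted p = 0.571). *Relb* lost its call without K382R replicate 2 (adjusted p = 0.0501, limma).

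The value of *Nfkb2* has a further limit, since exons of genes on the opposite strand cover part of it. GENCODE shares 1933 of its exonic bases with *Psd* and 1081 with the lncRNA *4833438C02Rik*. Whether reads were assigned by strand is not given in the sources used here, so reads of these genes and of *Nfkb2* cannot be told apart there. TPM of *Psd* ranged from 13.7 to 18.0 over the 6 libraries with a log2 fold change of 0.05 (adjusted p = 0.737, limma). *4833438C02Rik* fell by 0.41 (adjusted p = 0.0152, limma) from a TPM of at most 6.47. The same limit holds for *Bcl3*, which shares 314 exonic bases with the opposite-strand lncRNA *Gm16175* (TPM at most 0.280). *Gm16174*, also on the strand opposite to *Bcl3*, was not matched in GENCODE. Its TPM ranged from 0 to 4.30, with a log2 fold change of 1.18 (adjusted p = 0.139, limma).

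*Rel*, the c-REL subunit best known from lymphocytes, was the least abundant subunit. Its TPM was 5.19, 4.73 and 4.59 in K382Q libraries and 5.26, 5.22 and 5.17 in K382R libraries. K382Q replicate 1 lay within the K382R range. *Rel* (ENSMUSG00000020275.10, chr11:23686847-23720970, minus strand) was not called, with a log2 fold change of -0.10 (95% interval -0.30 to 0.10, adjusted p = 0.372, limma) and of 0.04 after median-ratio scaling.

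Read as shares of the summed TPM of the subunits, which do not depend on the scaling of a library, *Nfkb1* made up 19.0 to 20.7% in K382Q libraries and 23.8 to 26.4% in K382R libraries. *Rela* made up 37.5 to 37.8% against 33.6 to 35.3%, so that the shares of both genes were apart in all 6 libraries, in opposite directions. *Nfkb2* (30.1 to 31.9% against 29.2 to 29.7%) and *Rel* (2.54 to 2.85% against 2.38 to 2.45%) had somewhat larger shares in K382Q libraries without overlap, and shares of *Relb* overlapped (8.81 to 9.37% against 8.44 to 8.84%). Shares add to a whole, so a smaller share of 1 gene raises those of the others.

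*Nfkbia* was the most abundant member. IκBα, its product, is the inhibitor that is degraded and remade fastest after a stimulus. Its TPM was 109.5, 109.3 and 104.8 in K382Q libraries and 146.7, 141.6 and 137.5 in K382R libraries. The lowest K382R library stood well above the highest K382Q library, and the K382Q mean was 0.760 times the K382R mean (107.9 ± 2.65 and 142.0 ± 4.61, SD, n = 3). *Nfkbia* (ENSMUSG00000021025.9, chr12:55536195-55539432, minus strand) fell by 0.39 ± 0.0359 (adjusted p = 8.23e-05, limma), with 18.5% of tested genes below it. With median-ratio scaling it fell by 0.24 (adjusted p = 0.00152, limma), and over the alternatives it lay between -0.42 and -0.24.

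*Nfkbie* had the largest fold change and the lowest level of the members. IκBε acts on RELA and REL dimers with a slower time course than IκBα. TPM was 1.25, 1.23 and 1.25 in K382Q libraries and 2.48, 2.48 and 1.98 in K382R libraries. The K382Q values lay within a narrow band below all K382R values, and the mean ratio was 0.537. *Nfkbie* (ENSMUSG00000023947.9, chr17:45866629-45874095, plus strand) fell by 0.69 ± 0.135 (adjusted p = 0.00408, limma) and with median-ratio scaling by 0.57 (adjusted p = 0.0119, limma). Its size depended on the pseudocount, with -0.84 at 0.1 and -0.56 at 1, and the mean read depth over its exons was only 2.45 to 6.32, so its level is less precisely known than that of *Nfkbia*.

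*Tnfaip3* was lower in K382Q cells on the TPM scale, at 19.0, 20.5 and 20.5 against 23.3, 23.8 and 22.8 in K382R cells. The groups did not overlap. *Tnfaip3* (ENSMUSG00000019850.12, chr10:18876658-18891405, minus strand) fell by 0.22 ± 0.0510 (adjusted p = 0.00924, limma). After median-ratio scaling the difference was -0.07 with an interval of -0.20 to 0.06 (adjusted p = 0.360, limma).

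TPM of *Nfkbiz* was 19.6, 19.1 and 17.6 in K382Q libraries and 21.0, 20.2 and 19.9 in K382R libraries. These did not overlap but lay close, and *Nfkbiz* (ENSMUSG00000035356.18, chr16:55631738-55659262, minus strand) was not called at a log2 fold change of -0.12 (95% interval -0.25 to 0.02, adjusted p = 0.134, limma). TPM of *Bcl3* was 10.0, 10.2 and 8.05 against 8.73, 8.61 and 11.2. Its groups overlapped, with K382Q replicate 3 the lowest and K382R replicate 3 the highest of all libraries. *Bcl3* (ENSMUSG00000053175.18, chr7:19542387-19556695, minus strand) had a log2 fold change of -0.01 (-0.31 to 0.29, adjusted p = 0.950, limma). With median-ratio scaling both signs turned and neither gene was called, with 0.03 for *Nfkbiz* (-0.09 to 0.16, adjusted p = 0.674, limma) and 0.13 for *Bcl3* (-0.16 to 0.43, adjusted p = 0.448, limma).

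The transcripts to which reads of *Bcl3* were assigned also differed between libraries. From the ratio of coverage to FPKM, the transcripts that StringTie used for *Bcl3* covered 22.9% of its exonic bases in K382R replicate 3 and 25.8 to 27.6% in the other libraries, and a shorter transcript gives a higher TPM from the same reads. The part of this in the spread of *Bcl3* was not tested. Mean coverage of *Bcl3* ranged from 5.43 to 8.46 reads per base. Coverage was also fitted in place of TPM, rescaled to the same total in each library. The log2 fold change of *Bcl3* was then 0.02, and the other members kept their calls. On that scale the median gene lay at -0.15, so this fit is no check of the scaling. *Nfkb1* fell by 0.53 (adjusted p = 0.000118), *Nfkbia* by 0.41 (adjusted p = 8.72e-05) and *Nfkbie* by 0.74 (adjusted p = 0.00108) by limma on coverage. FPKM as deposited gave a fall of 0.47, 0.31 and 0.46 for these genes, and no other member was called.

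**Figure D2:**
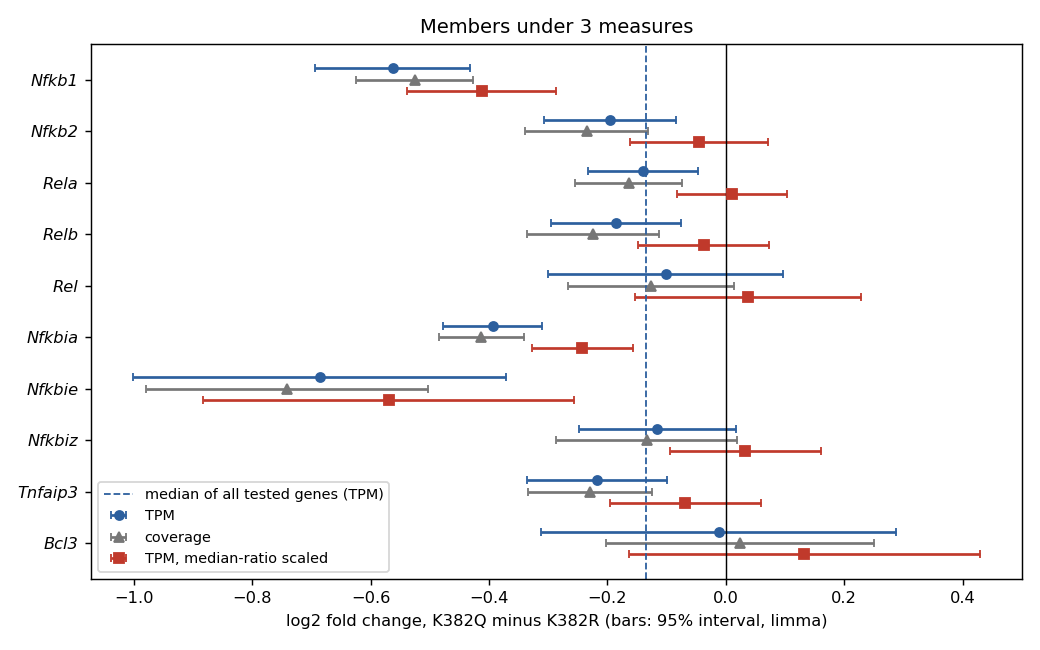
Log2 fold changes of the members (K382Q minus K382R, horizontal axis) by limma on TPM (circles), coverage (triangles) and TPM with median-ratio scaling (squares), with 95% intervals. The dashed line is the median of all tested genes on the TPM scale (-0.14), and only *Nfkb1*, *Nfkbia* and *Nfkbie* stay left of 0 with their whole interval on all of these measures.

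Ratios to *Rela* within a library need no scaling between libraries. *Rela* moved with the median gene (log2 fold change -0.14 for both), so these ratios largely repeat median-ratio scaling and are no separate check of it. The share of all tested genes whose ratio to *Rela* did not overlap between the mutants was not computed. *Nfkb1* per *Rela* was 0.553, 0.504 and 0.535 in K382Q libraries and 0.786, 0.675 and 0.685 in K382R libraries, 25.8% lower in the mean. *Nfkbia* per *Rela* was 1.60, 1.55 and 1.61 against 2.01, 1.88 and 1.80, 16.2% lower. *Nfkbie* per *Rela* was 0.0183, 0.0175 and 0.0192 against 0.0340, 0.0330 and 0.0259, 40.8% lower. None of the 3 ratios overlapped between the mutants, and each reached p = 0.1, the smallest value an exact permutation test (two-sided) of 3 against 3 libraries can give. Ratios of the other 6 members to *Rela* overlapped, with exact permutation p-values of 0.2 for *Tnfaip3* and *Relb*, 0.3 for *Nfkb2*, 0.4 for *Bcl3*, 0.6 for *Nfkbiz* and 0.7 for *Rel*. *Nfkb1* was also lower against *Nfkb2*, at 0.688, 0.597 and 0.662 against 0.905, 0.802 and 0.812.

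**Figure D3:**
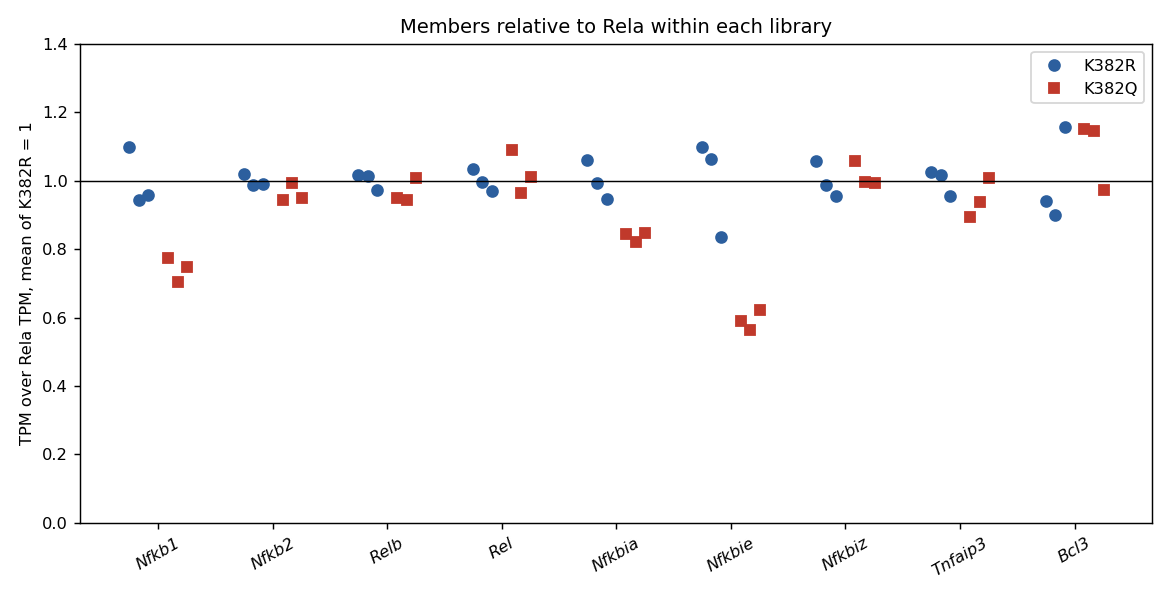
TPM of each other member divided by TPM of *Rela* in the same library (vertical axis, mean of the K382R libraries set to 1), with K382R libraries as circles and K382Q libraries as squares. Ratios of *Nfkb1*, *Nfkbia* and *Nfkbie* were lower in all 3 K382Q libraries than in any K382R library, and the other ratios overlap around 1.

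By mean TPM over the 6 libraries the members ranked *Nfkbia* (125), *Rela* (71.4), *Nfkb2* (59.7), *Nfkb1* (44.8), *Tnfaip3* (21.6), *Nfkbiz* (19.6), *Relb* (17.4), *Bcl3* (9.48), *Rel* (5.03) and *Nfkbie* (1.78). Neighbours in this order had separate ranges within each mutant, except *Tnfaip3* and *Nfkbiz*, which overlapped in K382Q cells. *Nfkbia* transcripts thus outnumbered those of any single subunit, and IκBε transcripts were the rarest.

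Of the 7 members with a window 6 hold the κB consensus, so its presence varied too little to be compared with fold changes. *Nfkbia*, with its element at positions -29 to -20, and *Nfkbie* fell on both scales. *Nfkb2*, *Rel*, *Tnfaip3* and *Bcl3*, which also hold the consensus, were not called after median-ratio scaling. Nor was *Rela*, with no match in its window. On the TPM scale *Nfkb2*, *Tnfaip3* and *Rela* were called lower (-0.20, -0.22 and -0.14). The windows cover 300 bases and say nothing of elements elsewhere.

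The rest of the pathway was read from lists of its parts. Of the receptors and adaptors that activate NF-κB, 17 of 22 were tested. On the TPM scale 12 were lower and 0 higher with a median of -0.35, beside 36.9% of all tested genes lower and 11.1% higher. After median-ratio scaling 8 were lower and 0 higher with a median of -0.23, beside 20.4% and 19.9% of all tested genes. *Tlr2*, a receptor of bacterial lipopeptides, fell by 1.24, from a mean TPM of 3.27 ± 0.281 in K382R cells to 1.10 ± 0.187 in K382Q cells (adjusted p = 0.000261, limma). *Tlr3*, a receptor of double-stranded RNA, fell by 0.95 and *Il1r1*, the IL-1 receptor, by 0.83 (adjusted p = 0.00119 and 0.000113, limma).

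Among IκB kinases, TRAF adaptors and ubiquitin ligases, 12 of the 24 tested genes (25 listed) were lower and 0 higher, with a median of -0.20, beside 36.9% of all tested genes lower and 11.1% higher. After median-ratio scaling 4 were lower and 4 higher, beside 20.4% and 19.9%. *Ikbke* (IKKε) fell by 0.59, *Traf5* by 0.58 and *Traf3*, which restrains the non-canonical pathway, by 0.53 (adjusted p = 0.00157, 0.00136 and 0.000547, limma). Of 16 further IκB proteins and inhibitors, 14 were tested, 8 were lower and 2 higher, beside 36.9% and 11.1% of all tested genes. After median-ratio scaling 3 were lower and 4 higher, beside 20.4% and 19.9% of all tested genes. *Irak3*, a brake on IL-1 and Toll-like receptor signals, fell by 0.55, *Tnip1*, a partner of A20, by 0.50, and *Nfkbib* (IκBβ) by 0.44 (adjusted p = 0.00354, 0.000343 and 0.00999, limma). *Nfkbib* lost its call with median-ratio scaling (adjusted p = 0.0701, limma). *Pdlim2*, which promotes the breakdown of nuclear RELA, rose by 0.24 and *Nkiras2* (κB-Ras) by 0.23 (adjusted p = 0.00493 and 0.00259, limma), and by 0.39 and 0.38 with median-ratio scaling.

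Most ligands of the pathway were at or near 0. *Il1b*, *Tnfsf14* and *Cd40lg* were listed at 0 in all 6 libraries. Together with these, 8 of the 12 ligands stayed under a TPM of 0.5 in every library, and *Tnf* did not exceed 0.441. Only 2 passed the filter on low values. *Tnfsf12*, which encodes TWEAK, fell by 0.93, from 11.8 ± 0.971 to 5.95 ± 0.561 (adjusted p = 0.000143, limma), and *Il18* was not called.

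Known NF-κB target genes had larger fold changes in the median than the subunits and inhibitors. Of 35 listed, 30 were tested, 23 were lower, 2 higher and 15 passed 2-fold, with a median of -1.03 beside -0.19 for the members and -0.14 for all tested genes. Of all tested genes 36.9% were lower, 11.1% higher and 3.88% past 2-fold. After median-ratio scaling 19 were lower and 4 higher, with a median of -0.88, beside 20.4% and 19.9% of all tested genes. *Ccl7* (a monocyte chemokine) fell by 2.19, from a mean TPM of 188 ± 11.9 in K382R cells to 40.9 ± 0.788 in K382Q cells. *Cxcl10* (a T-cell chemokine) fell by 2.15, from 160 ± 14.7 to 35.5 ± 1.82, and *Mmp3* (a matrix metalloproteinase) by 2.00, from 5.08 ± 1.19 to 0.882 ± 0.169 (adjusted p = 2.51e-07, 7.03e-07 and 0.000101, limma). *Ier3*, an early stress-response gene, and *Lcn2*, which encodes the iron-binding lipocalin 2, rose by 0.53 and 0.51 (adjusted p = 5.15e-05 and 0.00048, limma). Several of these genes, *Cxcl10* among them, also respond to interferon, and the list was written with the fall of chemokine genes in these libraries already known.

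**Figure D4:**
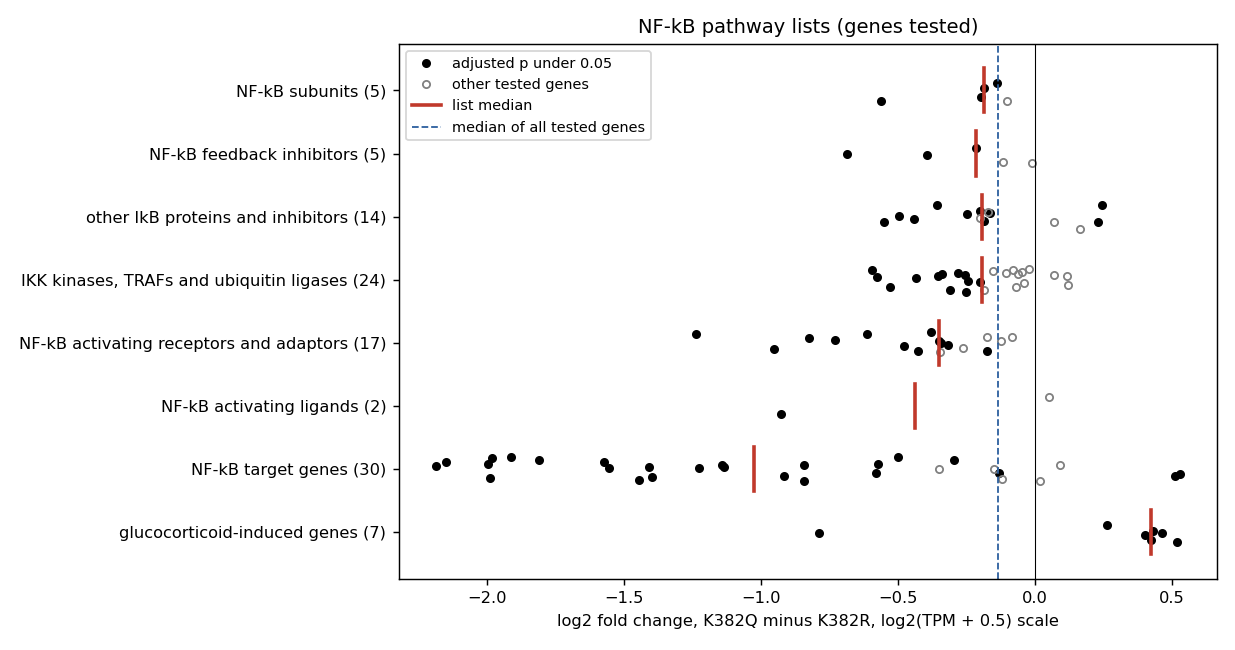
Log2 fold changes (K382Q minus K382R, log2(TPM + 0.5) scale, horizontal axis) of the tested genes in each list, filled where the adjusted p was under 0.05, with the list median as a red bar and the median of all tested genes as a dashed line. Target genes spread to -2.19 with a median of -1.03, while the lists of subunits and of feedback inhibitors have medians of -0.19 and -0.22.

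Most listed genes induced through the glucocorticoid receptor, which dexamethasone activates in both groups, moved the other way. Of 7, 6 were higher and 1 lower on both scales, with a median of 0.42 (0.57 after median-ratio scaling). Of all tested genes 11.1% were called higher and 36.9% lower, and 19.9% and 20.4% after median-ratio scaling. *Per1* rose by 0.52, *Fkbp5* by 0.46 and *Zbtb16* by 0.43, and *Sgk1* fell by 0.79 (adjusted p = 4.12e-05, 8.39e-05, 0.00427 and 9.79e-06, limma). The part of this difference in the values of *Nfkbia* and the other members was not tested.

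The overexpressed gene and the cell type markers differed as well. TPM of *Pparg*, which sums the transgene and the cells' own gene as far as it is counted, was 1200 ± 118.6 in K382Q cells and 1611 ± 21.1 in K382R cells, a fall of 0.43 (adjusted p = 0.000977, limma) and of 0.28 with median-ratio scaling. Adipocyte markers were abundant. Counting *Pparg* itself, 4 of 7 were lower and 2 higher, and 3 were lower and 3 higher after median-ratio scaling. *Adipoq* (adiponectin) was the only one past 2-fold, a fall of 1.28 (adjusted p = 7.63e-07, limma). The 2 called higher on TPM were *Fabp4*, by 0.34, and *Cidec*, by 0.27 (adjusted p = 0.00093 and 0.00108, limma). Summed TPM of the adipocyte markers, mostly *Fabp4*, was 52273 to 55968 in K382Q libraries and 43845 to 45040 in K382R libraries. The shares of all tested genes were 36.9% lower and 11.1% higher on TPM, and 20.4% and 19.9% after median-ratio scaling, for these and the following markers. All 5 tested precursor and fibroblast markers (of 7) were lower on both scales, and their summed TPM, mostly *Ly6a*, was 508 to 552 in K382Q libraries and 866 to 903 in K382R libraries. Summed smooth muscle markers were 6.47 to 7.69 against 19.0 to 20.8. Of the 5, 3 were tested, 2 of them lower and 1 higher on both scales, and most of the gap was *Acta2* (0.764 ± 0.0824 against 13.2 ± 1.02), while *Des* rose by 0.57 (adjusted p = 0.00537, limma). The part of these differences in the levels of *Nfkb1*, *Nfkbia*, *Nfkbie* and the target genes was not tested. Leukocyte markers summed to 3.60 to 5.27 in all libraries, nearly all of it *Cd68*, with *Adgre1*, *C1qa* and *Cd3e* at 0 throughout, and endothelial markers summed to 1.57 to 2.23, with *Emcn* at 0.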

How the data were processed

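RNA of 3 PPARγ2 K382Q- and 3 PPARγ2 K382R-overexpressing cell samples was sequenced from NEBNext Ultra libraries, aligned by the authors to GRCm39 with HISAT2 and quantified with StringTie. The deposited tables give mean coverage per base, FPKM and TPM per gene, where FPKM and TPM were scaled by the authors and the deposited coverage was not. Read counts were not analysed here, so no count test was used. Aligned bases per library were taken as coverage over FPKM in genes with 1 transcript. Entries with a repeated gene ID (3 to 5 per table) were summed. Of the gene IDs, 99.0% were found in GENCODE M39, which gave exons and overlaps. Only 61.0% of those found had the same position there as in the deposited tables. Exon shares and overlaps may therefore differ from the annotation the authors used.

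Genes that reached a TPM of 0.5 in 3 or more libraries were tested with limma 3.58.1 (R 4.3.3) after log2(TPM + 0.5), letting the variance follow the mean level, and p-values were adjusted by Benjamini-Hochberg over all 15426 genes. The test was checked on simulated data without a shift of the whole distribution, so that check does not bear on the choice of scale. Ratios were compared by exact permutation (scipy 1.17.1). Named genes are the members, *Pparg*, marker genes needed to state levels, and in each pathway list up to 3 called rises and 3 called falls of largest size with a mean TPM of at least 1 in either group. Overlapping genes, *Fabp4*, *Cidec*, *Ly6a*, *Cd68*, *Acta2*, *Des*, ligands and markers at 0 were named after their values were seen. The members and lists were chosen with earlier results of these data known. Settings varied were the pseudocount (1, 0.1), the filter (none, or TPM 1), the unit (FPKM), the scaling (median-ratio, quantile), the variance model (no trend with level, array weights), a replicate block, the removal of each library, and the fold threshold (1.5). Coverage, rescaled here to the same total in each library, was added after the data were seen, with and without median-ratio scaling.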

Additional observations from a re-analysis of the deposited data

How the results depend on the processing

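*Nfkb1*, *Nfkbia* and *Nfkbie* kept their direction and call under every alternative, a trait whose share over all tested genes was not computed. The number of members lower fell from 7 to 3 with FPKM, median-ratio scaling, quantile normalization and coverage with median-ratio scaling, and was 5 to 7 with a library left out. In that order of settings, *Nfkb2* was -0.111, -0.0452, -0.0365 and -0.0626, *Relb* -0.0992, -0.0373, -0.0262 and -0.0548, *Tnfaip3* -0.131, -0.0685, -0.0618 and -0.0600 and *Rela* -0.0563, 0.0106, 0.0185 and 0.0093, none of them called. *Rela* was not called without the trend either (-0.14, adjusted p = 0.0572, limma). With a library left out *Rela* lay between -0.165 and -0.111, *Relb* between -0.193 and -0.173 and *Bcl3* between -0.0757 and 0.107, positive without K382Q replicate 3 and without K382R replicate 3. In the same fits *Nfkbiz* lay between -0.1486 and -0.0718 and *Rel* between -0.1485 and -0.0674, never called. The 3 members that were not called turned positive with median-ratio scaling, quantile normalization and coverage with median-ratio scaling, *Rel* at 0.0371, 0.0288 and 0.0382, *Nfkbiz* at 0.0326, 0.0461 and 0.0295 and *Bcl3* at 0.133, 0.132 and 0.180, and *Bcl3* also with FPKM (0.0635) and coverage (0.0242). Over all genes these 3 scalings called 3148, 3241 and 3244 lower and 3064, 2954 and 3107 higher. Genes past 2-fold numbered 599, against 377 with FPKM and 1864 past 1.5-fold. Median-ratio scaling changes calls by its construction, since it moves each library by the shift of its median gene, and TPM alone cannot say which scale is right.

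The replicate numbers were not taken to pair the libraries. Deviations of same-numbered libraries correlated at only -0.018 to 0.051, beside -0.064 to 0.039 for libraries of different numbers. As a hint from the data the other way, 2 of 3 K382Q libraries correlated best with their own number. With the replicate block 6987 genes were called, against 7415 without it, and no member's call changed. Depth limits *Nfkbie* and *Bcl3* most among the members.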
